A study of Mus musculus with 2 samples.

Results

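The dystrophin and sarcoglycan complex was followed here through 8 of the 55536 genes in the deposited tables. These genes were taken by symbol from a list, with no cut on a measured value: Dmd, Utrn, Dag1, Sgca, Sgcb, Sgcd, Sntb1 and Dtna. Earlier results of these data were known when the genes were chosen. All 8 were found under 1 gene identifier each. Hearts of B6CASTF1/J males aged 14 days, a first-generation hybrid of C57BL/6J and CAST/EiJ, were the source of the RNA. No treatment or mutation was named. Total RNA, 300 ng per library, was depleted of ribosomal RNA and sequenced with its strand kept, with spike-in RNAs added, in 2 libraries called biological replicates. Both libraries formed 1 group, so no conditions could be compared. The labels name 3 males and give both libraries the same donor label, and pooling of animals is not stated, so differences between the libraries may be partly technical.

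Dystrophin, the product of Dmd, ties the actin cytoskeleton of a muscle cell to a set of membrane proteins, and through them to the laminin-rich matrix outside. Dystroglycan spans the membrane and binds laminin through its sugar chains, the sarcoglycans lie beside it in the membrane, and syntrophins and dystrobrevins bind dystrophin at the inner face and gather signalling proteins there. Utrophin, the product of Utrn, is a close relative of dystrophin that is widespread before birth and in many cell types. Loss of dystrophin or of some sarcoglycans can lead to muscular dystrophy, with or without cardiomyopathy.

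The Dmd gene makes a full-length muscle form and several short forms from starts inside the gene, and the sequences that tell these apart are shown first because the comparison of full-length with short transcripts rests on them. Dmd lies on the plus strand of chromosome X at 82948870 to 85206141 (mm10), a span of 2257 kb. The full-length transcript Dmd-203 has 79 exons and 14910 bases, and the short coding transcript Dmd-202 has 17 exons and 1858 bases and starts 2100 kb downstream. Its structure is that of the short dystrophin known as Dp71, whose own first exon joins exon 63 of the full-length transcript. The GENCODE M21 transcripts gave these stretches of 60 bases, in which capitals mark the coding part of the first exon or, for the junction, the end of exon 62, and lower case marks the next exon.
Dmd-203 coding start: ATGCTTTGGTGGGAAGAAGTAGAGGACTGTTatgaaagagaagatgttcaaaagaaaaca
Dmd-203 junction: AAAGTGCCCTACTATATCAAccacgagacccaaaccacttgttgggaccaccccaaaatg
Dmd-202 coding start: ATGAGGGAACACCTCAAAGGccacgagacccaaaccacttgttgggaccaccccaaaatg
The capitals stand at chrX:82949117-82949147, chrX:84974746-84974765 and chrX:85048440-85048459, all on the plus strand. The 40 bases in lower case are the same in the junction and in the short form, since both read into exon 63. Of the 1828 words of 31 bases in Dmd-202, 1752 (95.8%) also occur in Dmd-203, and 15 of its 17 exons are identical to full-length exons. Its own first exon has 47 bases, and only 28 of its words (1.53%) occur in no other Dmd transcript. A read from most of Dmd-202 can therefore be assigned to either transcript only by the estimate of the quantifier.

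Upstream windows near the same pair of starts are shown for the motifs they hold. RefSeq (GRCm38.p6) gave 250 bases before the start at the head of the gene, just ahead of the first base of Dmd-203 at 82948903, at chrX:82948620-82948869, and before the start of the short forms, the first base of Dmd-206 at 85048295 and upstream of the first base of Dmd-202 at 85048413, at chrX:85048045-85048294, both on the plus strand. Capitals mark motifs found on either strand.
Dmd 82948870: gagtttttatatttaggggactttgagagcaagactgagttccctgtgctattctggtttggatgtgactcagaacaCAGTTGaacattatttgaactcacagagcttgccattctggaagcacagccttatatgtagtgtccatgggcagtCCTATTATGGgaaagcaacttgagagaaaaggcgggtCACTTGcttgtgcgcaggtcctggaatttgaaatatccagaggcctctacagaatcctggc
Dmd 85048295: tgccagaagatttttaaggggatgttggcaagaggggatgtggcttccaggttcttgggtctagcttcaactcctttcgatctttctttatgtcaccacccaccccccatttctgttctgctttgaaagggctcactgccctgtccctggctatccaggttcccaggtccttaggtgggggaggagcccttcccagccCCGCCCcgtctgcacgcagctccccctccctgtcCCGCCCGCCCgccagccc
The window before the full-length start held 1 CArG box, the element read by serum response factor, 98 to 89 bases before the start, and 2 E-boxes (CANNTG) at 173 to 168 and 61 to 56 bases. Positions are counted from these RefSeq starts. The window before the short start held no CArG box and no E-box but 3 GC boxes (GGGCGG) at 52 to 47, 18 to 13 and 14 to 9 bases before the start, of which 1 pair overlaps. Neither window held an M-CAT element (CATTCC) or an N-box (TTCCGG). GC content was 45.2% in the first window and 60.0% in the other. Across 32851 promoter windows of this length, 1.47% held a CArG box, 66.2% an E-box, 32.7% a GC box, 12.6% an M-CAT element and 12.0% an N-box, and these matches are descriptions of the letters alone.

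Replicate 1 was counted to a depth of 39334380 expected counts and replicate 2 to 46391250, with 0.517% and 0.531% of them from spike-ins. Markers of cardiomyocytes were at 1 TPM (a level per transcript molecule, scaled for length and depth) or more in both libraries for 6 of 6 genes, and their TPM summed to 26998 and 25540. Summed TPM in replicates 1 and 2 was 748 and 644 for 6 endothelial markers, 257 and 294 for 5 smooth muscle markers and 480 and 412 for 5 fibroblast markers. The smooth muscle markers were mixed in direction, with 3 higher in replicate 1 and 2 higher in replicate 2. The sums were 4.85 and 4.40 TPM for 6 Schwann cell and neuron markers and 1.55 and 2.46 TPM for 6 skeletal muscle markers. Of the skeletal muscle markers, 1 was at 1 TPM or more in both libraries and 5 were below 1 TPM in both. The libraries stood apart in 2 marker lists: 4 atrial genes summed to 1585 TPM in replicate 1 and 492 in replicate 2, and 7 T cell and thymus genes to 1.41 and 44.4 TPM. Because whole tissue was sequenced, fewer cells of a type and less RNA per cell cannot be told apart in any level given here.

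All 8 genes were well above the detection level of 1 TPM in both libraries, and their levels spanned about 1 order of magnitude from Dag1 to Sntb1. Their median was 32.3 ± 1.26 TPM (SD, n = 2), while the median of the 11421 detected protein-coding genes was 9.72 TPM in replicate 1 and 9.96 TPM in replicate 2. Even Sntb1, the lowest, stood above 65.2% and 64.9% of those genes. The order was Dag1, Sgca, Dmd, Dtna, Sgcb, Utrn, Sgcd, Sntb1, and the values of neighbours did not overlap between the libraries, except those of Dtna and Sgcb. In the kallisto-style tables Sgcb stood above Dtna, again with overlap, and Sgcd above Utrn. With protein-coding transcripts alone, Sgcb and Dtna stood above Dmd, whose mean was 25.8 TPM and whose values then overlapped those of Utrn.

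**Figure D1:**
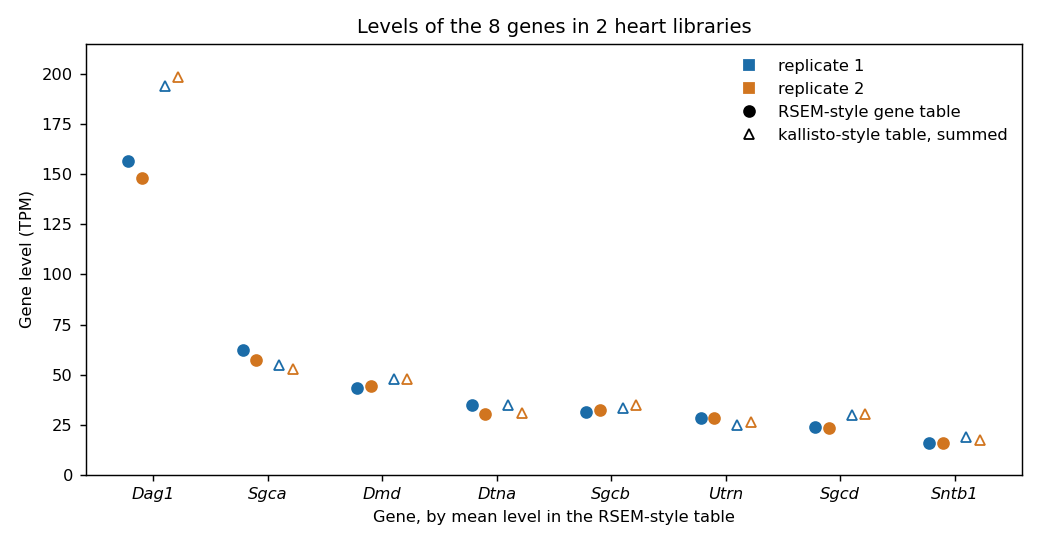
Gene level in TPM (y axis) of the 8 genes (x axis) in replicate 1 (blue) and replicate 2 (orange), from the RSEM-style gene tables (circles) and from the kallisto-style transcript tables summed per gene (triangles). Dag1 stands far above the rest at 157 and 148 TPM, and the tables differ most for Dag1 and Sgcd.

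Dmd itself, which encodes dystrophin, was at 43.56 TPM in replicate 1 and 44.37 TPM in replicate 2, a mean of 44.0 ± 0.573 TPM (SD, n = 2) from 13100 and 14181 counts. It stood above 87.5% and 87.6% of detected protein-coding genes. By the kallisto-style tables Dmd was at 48.0 ± 0.0143 TPM, 1.09 times as high. The gene's level was nearly equal in both libraries by either table.

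That sum mixed transcripts of very different kinds. The full-length transcript Dmd-203 was at 26.35 TPM in replicate 1 and 23.36 TPM in replicate 2, or 60.5% and 52.6% of the gene's TPM. Because it is so long, it took 91.2% and 89.4% of the gene's expected counts, 11946 and 12682. By the kallisto-style tables the full-length transcript was at 30.0 and 27.0 TPM, with 95.7% and 94.5% of the counts. Full-length Dmd was thus the highest Dmd transcript in both libraries by both tables, and somewhat higher in replicate 1.

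The short coding transcript Dmd-202, of the Dp71 type, was at 0.35 TPM in replicate 1 and 1.51 TPM in replicate 2, from 18.9 and 97.7 expected counts. The deposited credibility intervals ran from 0.0175 to 1.09 TPM in replicate 1 and from 0.690 to 2.39 TPM in replicate 2, so they overlapped. The kallisto-style tables gave 1.12 and 3.06 TPM, from 52.6 and 168.6 estimated counts. The other short coding transcript, Dmd-201, has no word of 31 bases of its own and was listed at 0 TPM in both libraries by both tables. Dmd-202 and Dmd-201 both start at 85048413, so short forms from other starts inside the gene were not covered by the short coding level.

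Full-length over short coding Dmd came to a log2 ratio of 5.88 in replicate 1 and 3.87 in replicate 2, with 0.1 TPM added to each level. The mean was 4.87 ± 1.42 (SD, n = 2), or 29.3-fold, and the ratio was above 0 in 2 of 2 libraries. By the kallisto-style tables the log2 ratio was 4.62 and 3.10, a mean of 3.86 ± 1.08 or 14.5-fold. The direction was the same in both libraries by both tables, and the ratio was larger in replicate 1 by both. Its size depended on the constant added to the low short form: with 1 TPM added the mean was 3.81 log2 units, and with posterior mean TPM it was 4.49. The difference between the libraries came with the short form: Dmd-202 was higher in replicate 2, the library in which 7 of 7 T cell and thymus markers were also higher, and the part of those cells in it was not tested. With only 2 values, an exact permutation test of their signs cannot go below p = 0.5, so no test was made of this ratio or of the other ratios between transcripts and genes.

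**Figure D2:**
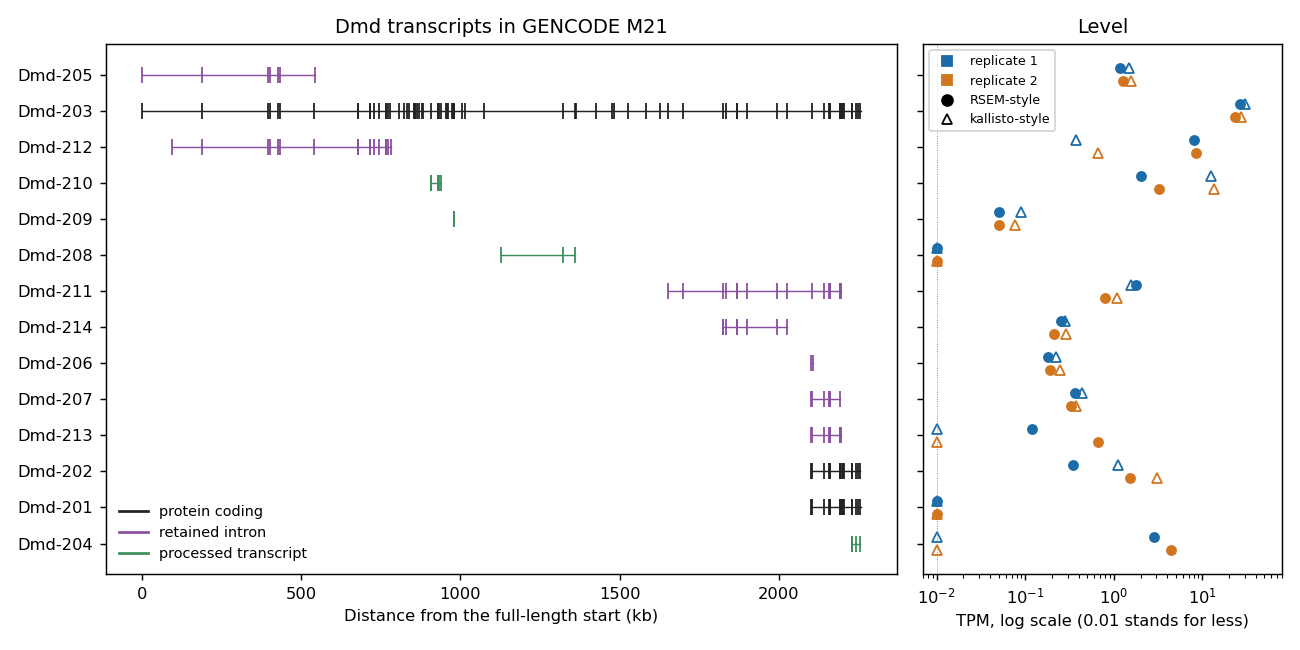
Left, exons (ticks) of the 14 annotated Dmd transcripts by distance in kb from the full-length start, coloured by type. Right, the level of each in TPM on a log scale in replicate 1 (blue) and replicate 2 (orange), from the RSEM-style (circles) and kallisto-style (triangles) tables; the full-length Dmd-203, at 26.35 and 23.36 TPM, is the highest, and Dmd-212, Dmd-210 and Dmd-204 move most between the tables.

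The rest of the Dmd level was in transcripts annotated as non-coding. Retained-intron transcripts, 7 in number, summed to 11.97 TPM in replicate 1 and 11.86 TPM in replicate 2, and the 4 processed transcripts to 4.90 and 7.66 TPM. The kallisto-style tables turned this order round, with 4.37 and 4.21 TPM for retained-intron transcripts and 12.5 and 13.7 TPM for processed ones. Coding transcripts made up 61.3% of Dmd TPM in replicate 1 and 56.0% in replicate 2, against a median of 87.6% and 86.8% over 9236 detected genes with a non-coding transcript. Of those genes, 16.8% and 13.7% had a lower coding share than Dmd.

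Among the retained-intron forms Dmd-212 led, a transcript of 3055 bases that starts 94.5 kb into the gene, at 8.09 TPM in replicate 1 and 8.41 TPM in replicate 2. The kallisto-style tables put it at only 0.374 and 0.663 TPM. Dmd-210, a processed transcript of 868 bases from the middle of the gene, moved the other way, with 2.03 and 3.20 TPM by the RSEM-style tables and 12.5 and 13.6 TPM by the kallisto-style tables. Dmd-204, of 596 bases near the 3′ end, was at 2.82 and 4.41 TPM in the RSEM-style tables and at 0 in the kallisto-style tables. Only 4.24% to 30.1% of the 31-base words of these 3 transcripts occur in no other Dmd transcript, and their levels moved more between the tables than between the libraries.

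The remaining forms were lower. Dmd-205, a retained-intron form that starts at 82948870, just before Dmd-203, and holds 2827 words of 31 bases found in no other Dmd transcript, was at 1.17 and 1.26 TPM, and at 1.48 and 1.55 TPM in the kallisto-style tables. Dmd-207, Dmd-214 and Dmd-206, also retained-intron forms, with 1239, 1138 and 1589 such words, stayed between 0.18 and 0.36 TPM. Dmd-211 was at 1.80 and 0.80 TPM with 2 such words, and Dmd-213 was at 0.12 and 0.66 TPM with none. Dmd-206, Dmd-207 and Dmd-213 start just upstream of the short coding forms.

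Utrn, which encodes utrophin, lies on the minus strand of chromosome 10 at 12382188 to 12869365 (mm10), a span of 487 kb. It was at 28.39 TPM in replicate 1 and 28.53 TPM in replicate 2, a mean of 28.5 ± 0.0990 TPM (SD, n = 2) from 6969 and 8050 counts, above 80.4% and 80.2% of detected protein-coding genes. The kallisto-style tables gave 25.6 ± 0.772 TPM. Utrn had a larger share of its level in coding transcripts than Dmd, 89.9% and 90.7%, close to the median gene.

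A pair of long Utrn transcripts carried 87.4% of the gene's counts in replicate 1 and 86.2% in replicate 2. Utrn-201, of 12382 bases, was at 11.55 and 11.38 TPM, and Utrn-205, of 11801 bases, at 4.88 and 4.23 TPM. The kallisto-style tables gave 13.1 and 12.1 TPM for Utrn-201 and 6.71 and 7.23 TPM for Utrn-205. The annotated start of Utrn-201 is the first base of exon 2 of Utrn-205. Of the 74 exons of Utrn-201, 73 are the same as exons of Utrn-205. At the 3′ end Utrn-201 reaches 12382188 and Utrn-205 only 12383380, while the shorter Utrn-206 reaches 12382190. Counted against all other Utrn transcripts, Utrn-201 has only 2 words of 31 bases of its own and Utrn-205 has 609. Which start was used was not tested from the division of this pair. The sum of the pair was close in both libraries, 16.43 and 15.61 TPM.

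Shorter coding Utrn transcripts, 6 in number, summed to 9.07 TPM in replicate 1 and 10.26 TPM in replicate 2. Utrn-202 led at 4.27 and 4.57 TPM but was at 0 in the kallisto-style tables. Utrn-206, of 5751 bases and starting 313 kb into the gene, was at 1.97 and 2.08 TPM in the RSEM-style tables and at 0.323 and 0.216 TPM in the kallisto-style tables. Utrn-212 was at 1.85 and 1.88 TPM, Utrn-207 at 0.66 and 1.29 TPM and Utrn-204 at 0.29 and 0.44 TPM. Outside the coding forms, Utrn-210, annotated for nonsense-mediated decay, was at 1.77 and 0.99 TPM, and the retained-intron forms Utrn-208, Utrn-213 and Utrn-209 were between 0.31 and 0.46 TPM. The shorter coding forms summed to less in the kallisto-style tables, 4.38 and 3.87 TPM.

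**Figure D3:**
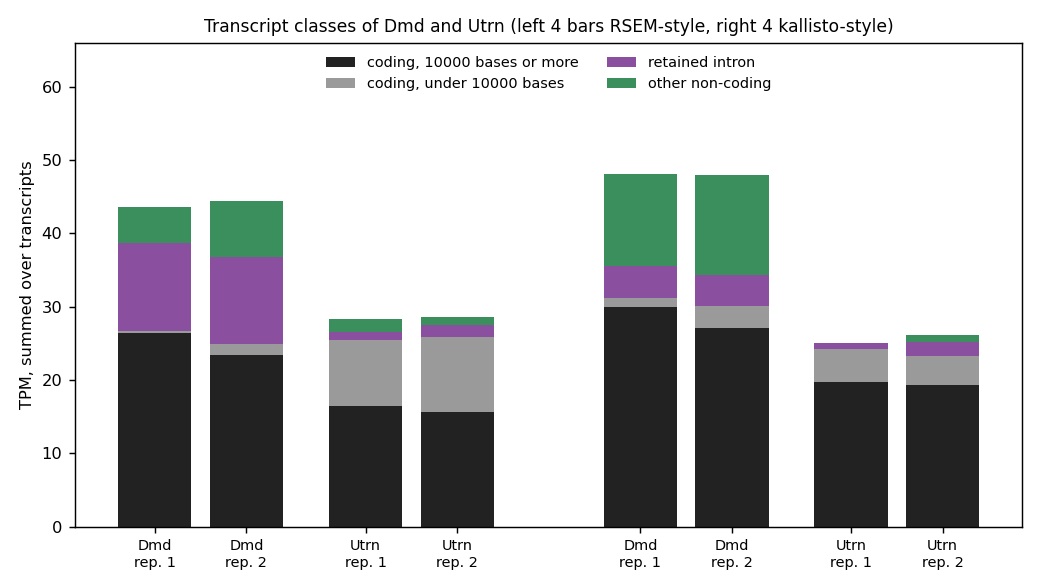
TPM summed over transcripts (y axis, from 0) of Dmd and Utrn in each replicate, stacked by transcript class, with RSEM-style bars on the left and kallisto-style bars on the right. The longest class holds 26.35 and 23.36 TPM of Dmd and 16.43 and 15.61 TPM of Utrn in the RSEM-style tables, and the non-coding classes are larger for Dmd than for Utrn in every pair of bars.

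Dmd was set against Utrn because the proteins are related and utrophin can partly stand in for dystrophin in the complex. Over all transcripts the log2 ratio of Dmd to Utrn was 0.62 in replicate 1 and 0.64 in replicate 2, a mean of 0.63 ± 0.01 (SD, n = 2) or 1.54-fold, with Dmd higher in 2 of 2 libraries. The kallisto-style tables gave 0.94 and 0.87, a mean of 0.91 ± 0.04 or 1.87-fold. The spread between libraries was small beside the ratio in both tables.

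The ratio depended on which transcripts were counted. With protein-coding transcripts alone, Dmd was at 26.70 TPM and Utrn at 25.50 TPM in replicate 1, and Dmd at 24.87 TPM and Utrn at 25.87 TPM in replicate 2. The log2 ratio was then 0.07 and -0.06, so the libraries differed in sign and Dmd and Utrn were not separable in the RSEM-style tables. By the kallisto-style tables the coding ratio stayed above 0, at 0.36 and 0.37. With transcripts of at least 10000 bases alone, which can carry a full-length protein, Dmd was at 26.35 and 23.36 TPM and Utrn at 16.43 and 15.61 TPM, a mean log2 ratio of 0.63 ± 0.07 or 1.55-fold. The same ratio was 0.54 ± 0.08 by the kallisto-style tables, so long transcripts of Dmd were higher than those of Utrn in both libraries by both tables.

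**Figure D4:**
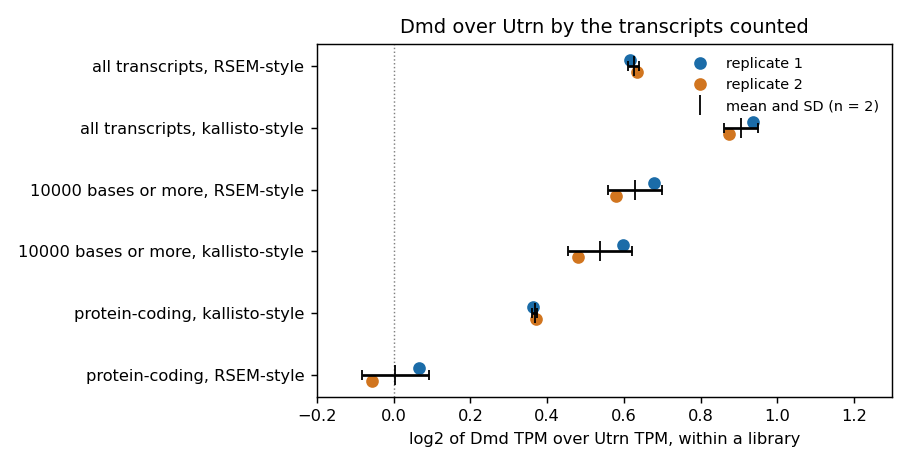
Log2 ratio of Dmd TPM over Utrn TPM within each library (x axis; points are replicates 1 and 2, the tick and bar their mean and SD) for the transcripts and table named on the y axis. All ratios lie above 0 except the protein-coding ratio of the RSEM-style tables, at 0.07 and -0.06.

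Dag1, on the minus strand of chromosome 9 at 108204634 to 108263958, encodes both subunits of dystroglycan, the laminin receptor at the centre of the complex. It was the highest of the 8 genes, at 156.59 TPM in replicate 1 and 148.32 TPM in replicate 2, a mean of 152 ± 5.85 TPM (SD, n = 2) from 21860 and 24284 counts. That placed it above 96.6% and 96.5% of detected protein-coding genes. Dag1 stood above Dmd by a log2 ratio of 1.79 ± 0.07, or 3.46-fold, and by 2.03 in the kallisto-style tables, where Dag1 was at 196 ± 3.17 TPM. Its main transcript, of 5662 bases, was at 97.17 and 88.79 TPM. Transcripts of 4415 and 4364 bases followed, the longer at 20.23 and 17.56 TPM and the shorter at 17.83 and 19.34 TPM. The kallisto-style tables gave nothing above 0.01 TPM to the transcript of 4364 bases and 51.7 and 52.2 TPM to that of 4415 bases, while the main one stayed at 100.2 and 91.0 TPM.

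The sarcoglycans are single-pass membrane proteins that assemble as a unit beside dystroglycan, and the 3 followed here stood in the order Sgca, Sgcb, Sgcd in both libraries. Sgca (alpha-sarcoglycan; chromosome 11, 94962791 to 94976327, minus strand) was at 62.35 TPM in replicate 1 and 57.09 TPM in replicate 2. Sgcb (beta-sarcoglycan; chromosome 5, 73632749 to 73647790, minus strand) was at 31.28 and 32.18 TPM, and Sgcd (delta-sarcoglycan; chromosome 11, 46896253 to 47988969, minus strand, a span of 1093 kb) at 23.87 and 23.57 TPM. Sgca was above Sgcb by a log2 ratio of 0.91 ± 0.12 and above Sgcd by 1.33 ± 0.08 (SD, n = 2). The kallisto-style tables narrowed these ratios to 0.65 and 0.83 and placed Sgcd at 29.9 and 30.4 TPM, but kept the order of the sarcoglycans.

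The sarcoglycan genes differed in how firmly their transcripts could be told apart. Sgcb rested on a single coding transcript, Sgcb-201, at 30.31 and 31.30 TPM. Sgcd-201 carried nearly all of Sgcd, at 22.93 and 22.45 TPM. For Sgca, the RSEM-style tables divided the level over Sgca-201 at 21.21 and 16.15 TPM, Sgca-202 at 15.84 and 20.37 TPM and the 351-base Sgca-204 at 17.94 and 15.85 TPM. The kallisto-style tables put 42.0 and 42.7 TPM on Sgca-202 and none on Sgca-201 or Sgca-204. Sgca-201 has no word of 31 bases of its own and Sgca-202 has 6, and all annotated Sgca transcripts are coding.

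Sntb1 and Dtna act on the inner side of the membrane. Sntb1 (beta-1-syntrophin, an adaptor that binds dystrophin; chromosome 15, 55636388 to 55906949, minus strand) was the lowest of the 8, at 15.86 TPM in replicate 1 and 15.83 TPM in replicate 2, from a main transcript of 4919 bases at 15.86 and 14.43 TPM. Its processed transcript of 600 bases was listed at 0 and 1.40 TPM. Dtna (alpha-dystrobrevin, a dystrophin relative that binds both dystrophin and syntrophins; chromosome 18, 23415135 to 23659715, plus strand) was at 35.02 and 30.57 TPM, the widest relative gap between libraries among the 8. The short Dtna-201, of 1596 bases, led at 15.01 and 13.55 TPM, before the 4490-base Dtna-206 at 10.92 and 8.66 TPM and the processed transcript Dtna-205 at 2.56 and 2.13 TPM. All 3 of these Dtna transcripts were higher in replicate 1.

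The libraries were then compared gene by gene with an exact binomial test on counts, which compares these libraries and not conditions and has no term for variation between animals. Of 16611 genes tested, 539 (3.24%) passed a Benjamini-Hochberg adjusted p of 0.05 with at least a 2-fold difference, and 0 of the 8 genes did. At any ratio, 5 of the 8 passed, against 3666 of all genes tested (22.1%), with counts of 1158 to 24284 behind the 8. The largest ratio of replicate 1 over replicate 2 was that of Dtna, a log2 ratio of 0.21 (95% interval 0.13 to 0.28, adjusted p = 1.46e-06 by the exact binomial test). Dmd followed at 0.17 (0.14 to 0.20), Sntb1 at 0.15 (0.06 to 0.23), Dag1 at 0.13 (0.11 to 0.16) and Utrn at 0.08 (0.03 to 0.12). Sgca, Sgcd and Sgcb, at 0.06, 0.02 and -0.02, missed the threshold. The median absolute log2 ratio of all genes tested was 0.14, and 3 of the 8 lay above it. With edgeR's exact test and an assumed coefficient of variation of 0.1 or 0.2 between animals, 0 of the 8 passed at any ratio.

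For Dmd the count ratio favoured replicate 1 while the gene's TPM was slightly higher in replicate 2 in the RSEM-style tables, though not in the kallisto-style tables, at 48.04 and 48.02 TPM. By both tables the full-length transcript, which holds most of the counts, was higher in replicate 1, and the processed transcripts summed to more TPM in replicate 2.

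Of 10 other genes of the complex in a list, 4 were at 1 TPM or more in both libraries. Sarcospan (Sspn), a small membrane protein bound to the sarcoglycans, was the highest of them at 56.08 TPM in replicate 1 and 55.90 TPM in replicate 2. Epsilon-sarcoglycan (Sgce) followed at 12.68 and 11.42 TPM. Sntb1 was above its paralog Sntb2, at 8.11 and 8.15 TPM, by a log2 ratio of 0.95 ± 0.01 (SD, n = 2), and by 1.06 in the kallisto-style tables.

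Dtna outweighed its paralog Dtnb, at 2.96 and 2.07 TPM, by a log2 ratio of 3.67 ± 0.21 or 12.7-fold, and by 3.22 ± 0.42 in the kallisto-style tables. The 6 genes below 1 TPM in both libraries were Sgcz, Sntg1, Sntg2, Drp2, Dytn and Nos1. Nos1, a nitric oxide synthase bound to syntrophin in skeletal muscle, was at 0.08 and 0.07 TPM, and Drp2, another dystrophin relative, at 0.21 and 0.12 TPM. Dytn had 0 counts in both libraries, which allows up to 0.0763 CPM (counts scaled to depth) in replicate 1 and 0.0647 CPM in replicate 2. None of the list passed the 2-fold call between the libraries.

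Enzymes that build the laminin-binding sugars of dystroglycan were nearly all present: 15 of 16 listed were at 1 TPM or more in both libraries, with medians of 8.49 TPM in replicate 1 and 9.30 TPM in replicate 2. Pomgnt1, which extends O-mannose on dystroglycan, led at 31.59 and 30.38 TPM, before the dolichol phosphate mannose synthase subunits Dpm1 at 27.18 and 27.10 TPM and Dpm3 at 21.33 and 24.06 TPM. B4gat1, a glucuronyltransferase, was at 18.18 and 16.75 TPM and Rxylt1, a xylosyltransferase, at 14.29 and 13.32 TPM. The single gene below 1 TPM in both was Large2, at 0.18 and 0.13 TPM.

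All 12 matrix ligands and partners were at 1 TPM or more in both libraries, with medians of 71.0 and 67.9 TPM. Perlecan (Hspg2) led at 190.78 TPM in replicate 1 and 183.35 TPM in replicate 2, before the laminin chains Lamb2 at 145.40 and 145.52 TPM and Lamc1 at 135.15 and 124.22 TPM. Biglycan (Bgn) was at 103.63 and 88.46 TPM, and Lama2, the alpha chain of the muscle laminin, at 89.71 and 87.37 TPM. Dag1, which encodes their receptor, was at a level between those of Hspg2 and Lamb2 in these tables, and above Hspg2 in the kallisto-style tables, where Dag1 was at 193.9 and 198.3 TPM and Hspg2 at 171.6 and 168.9 TPM. No gene of the glycosylation and matrix lists passed the 2-fold call.

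Of 10 partners at the membrane and in the cytoskeleton, 9 were at 1 TPM or more in both libraries. Ank2, which encodes ankyrin-B, was at 135.96 TPM in replicate 1 and 129.05 TPM in replicate 2, dystonin (Dst) at 135.21 and 129.88 TPM and plectin (Plec) at 123.18 and 116.98 TPM. Filamin C (Flnc) was at 64.93 and 71.68 TPM and caveolin-3 (Cav3) at 60.31 and 53.91 TPM. Krt8, a keratin, was at 0.85 TPM in replicate 1 and 2.87 TPM in replicate 2 and was the only gene of the list past the 2-fold call, at a log2 ratio of -1.74 (adjusted p = 3.95e-15, exact binomial test). It was higher in the library with the higher T cell and thymus markers, and the part of those cells in the difference was not tested.

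**Figure D5:**
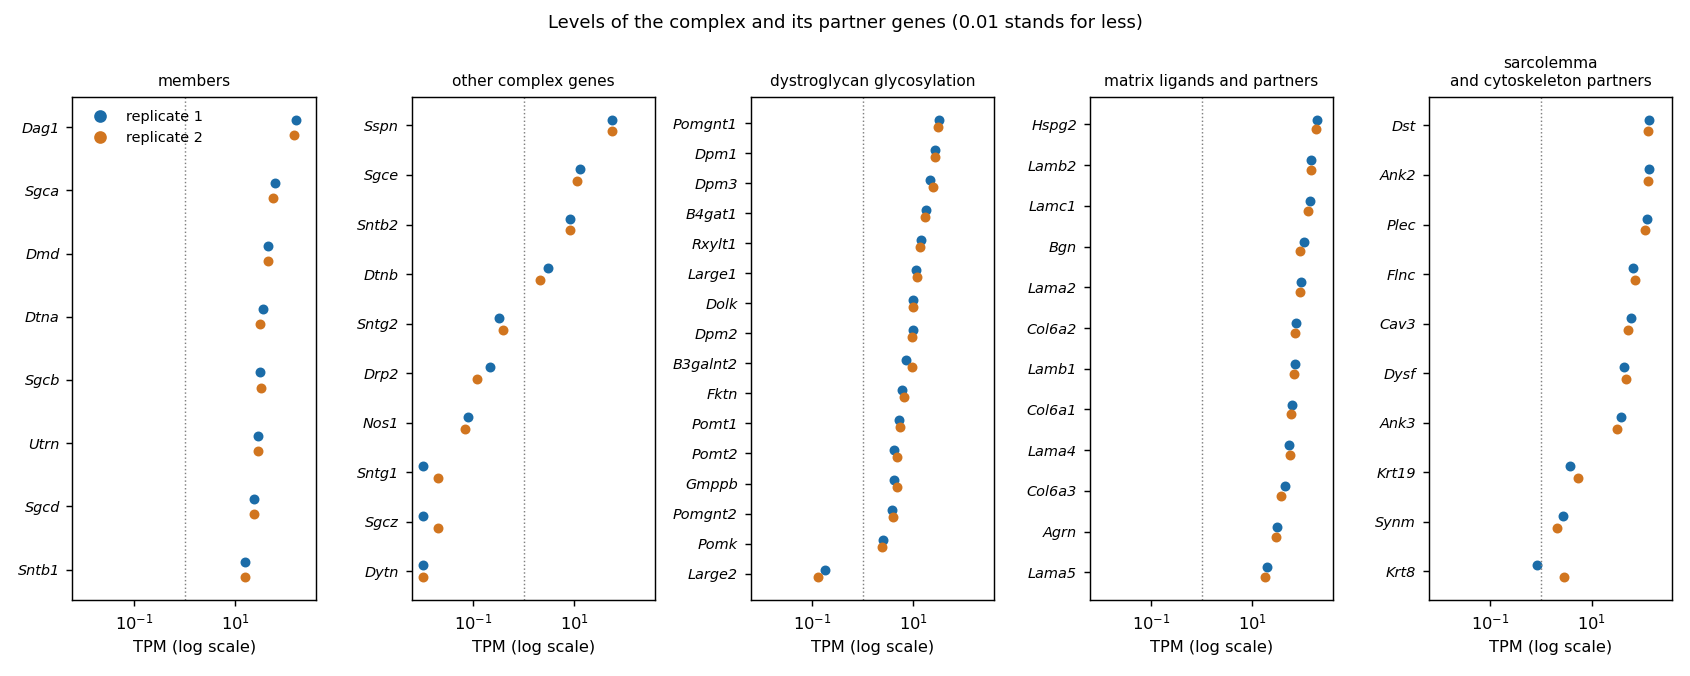
TPM on a log scale (x axis, with a dotted line at 1 TPM) of the 8 genes and of 4 lists of related genes, in replicate 1 (blue) and replicate 2 (orange). The 8 genes lie between 15.83 and 156.59 TPM, and of the related genes 6 of the other complex genes and Large2 lie below 1 TPM in both libraries.

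The 8 genes shared exons with only 1 other annotated gene: 90 exonic bases of Dtna are overlapped by the antisense gene Gm47898, which had 0 counts in both libraries.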

How the data were processed

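The authors deposited 3 tables for each library, with RSEM column names for genes and for transcripts and with kallisto column names for transcripts. The sources used here do not give tool versions. RSEM-style columns hold, per the file headers, expected counts, TPM, posterior mean TPM, credibility bounds of TPM and each transcript's percent of its gene's TPM. In the kallisto-style tables the deposited columns are estimated counts and TPM. The readme of the authors names mm10 and GENCODE M21. Reads of the CAST/EiJ genome were thus assigned to the reference strain, and the effect was not tested.

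Members were matched by symbol. Members, lists and tests were chosen with earlier results of these data known. Ratios are log2((TPM + 0.1)/(TPM + 0.1)) within a library. Full-length means at least 10000 bases, and short means protein-coding below that. Detected means at least 1 TPM in both libraries. The text names all 8 members, every Dmd and Utrn transcript with at least 0.1 TPM in both libraries, the 3 highest transcripts of other members and, of each list, the 5 highest genes, those below 1 TPM in both libraries where at most 6, and those past the library threshold. Some related genes are not reported here. Dmd-201 and Gm47898 lie outside this rule and were named after their values were seen.

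Expected counts were rounded to whole numbers, scaled with TMM (edgeR 4.0.16, R 4.3.3) and compared by a 2-sided exact binomial test (scipy 1.17.1). Genes entered with 10 or more counts in both libraries or 20 or more in their sum. Calls need a Benjamini-Hochberg adjusted p under 0.05 and a 2-fold difference. Intervals are exact 95% (Clopper-Pearson) and, like the limit of 3 counts for a gene at 0, cover counting error only. DESeq2 1.42.0 size factors were an alternative. The test was checked on counts simulated with counting error only, so the check does not cover variation between animals. Spike-ins and numbered identifiers without a gene (0.87 and 2.84 counts) stayed out of library sizes. Depth was 39334380 and 46391250 expected counts. Words of 31 bases were counted over the M21 transcripts of each gene. RefSeq promoter entries were found for 6 of the 8 genes.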

Additional observations from a re-analysis of the deposited data

How the results depend on the processing

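No paired analysis was possible because both libraries belonged to 1 group. The median level of the 8 genes, 32.3 TPM, was 27.7 TPM with protein-coding transcripts only, 30.6 TPM with those of the kallisto-style tables and 76.3 TPM when TPM was rescaled to nuclear protein-coding genes; leaving out 1 library at a time gave 31.4 to 33.2 TPM. Levels of single genes moved by more than 1 SD of the 2 libraries in 30 of 56 alternatives. That count is no measure of stability, since some outcomes were fixed in advance. Leaving out 1 of 2 libraries only repeats the value of the other, which cannot lie more than 1 SD from the mean. Rescaled TPM is on another scale and moved every gene. Dmd over Utrn, 0.63 on the log2 scale, was 0.91 by the kallisto-style tables, 0.61 with a pseudocount of 1 and 0.0047 with protein-coding transcripts only. With the kallisto-style tables it was 0.37 for protein-coding transcripts and 0.54 for those of at least 10000 bases, and leaving out 1 library gave 0.62 to 0.64. Full-length over short Dmd, 4.87, was 0.38 when every shorter transcript of any type was counted as short, and 3.87 to 5.88 when 1 library was left out. A pseudocount of 1 gave 3.81 and posterior mean TPM 4.49. Length limits of 5000 or 12000 bases had to give the same value, since no Dmd transcript has a length between 4438 and 14910 bases. The 539 differences between the libraries became 230 with an assumed coefficient of variation of 0.2 between animals. No gene of the 8 passed the 2-fold call in any of 48 alternatives. The ratios of the longest transcripts and the coding values of the kallisto-style tables were chosen after seeing the data. The causes of these shifts were not tested. Depth limits the short Dmd form, at 18.9 and 97.7 expected counts, and other transcripts of few counts.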
